A study of Macaca mulatta with 304 samples.

Results

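Whole blood was drawn from 28 adult rhesus macaques before and for up to 270 days after photon irradiation of the upper thorax, and 24 control and 280 post-irradiation samples were sequenced. These results follow 10 genes that are used to read radiation exposure from blood and that are known as targets of the transcription factor p53: CDKN1A, MDM2, BAX, BBC3, FDXR, DDB2, XPC, PHLDA3, AEN and GADD45A. They were chosen by symbol from the 21070 genes of the count table, all 10 were found, and all 10 were among the 13751 genes tested. The low-dose group (LD) received 9.8 Gy (12 animals, 6 females and 6 males) and the high-dose group (HD) received 10.7 Gy (16 animals, 8 females and 8 males). Each animal's own draw on Day -2 served as its unirradiated control, and 24 animals, 12 per dose, had one. No sham-irradiated group is among the samples analysed here, so time, repeated bleeding and the supportive drugs given under veterinary care, dexamethasone and analgesics among them, cannot be told apart from the irradiation. Per the paper, the regular analgesics began after the Day 3 draw and dexamethasone was given for rapid breathing. An antiemetic and anesthesia preceded the irradiation. All animals were of the Chinese sub-strain, and the exposure covered part of the body only.

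p53 is held at a low level in resting cells by MDM2, which marks it for destruction, and double-strand breaks release it through the kinases ATM and CHEK2. It then binds DNA at paired half-sites and switches on genes that stop the cell cycle, repair DNA or kill the cell, and MDM2 itself, which closes the loop. In blood, where lymphocytes are very sensitive to radiation, transcripts of several such genes are used as biodosimeters in the first days after exposure.

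The letters that p53 is known to bind can be seen beside some of these genes. A search of both strands, within 2500 bases of the 5′ end of each gene as annotated on Mmul_10, allowed 2 mismatches to the p53 consensus of 2 half-sites without a spacer, with the core C and G of each half-site required. A match lay near 5 of the 10 genes (50%) and near 766 of 21024 counted protein-coding genes (3.64%). The 5 matches are printed 5′ to 3′ on the strand of the gene, with the 4-letter core of each half-site in capitals, because p53 is known to act by binding letters of this kind.
CDKN1A, chr4:132765962-132765981, upstream, at -2137 bases from the start, 2 mismatches: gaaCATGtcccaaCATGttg
GADD45A, chr1:156739574-156739593, intron, 1520 bases downstream, 1 mismatch: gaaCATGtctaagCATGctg
BAX, chr19:48937066-48937085, intron, 905 bases downstream, 2 mismatches: gggCAGGcccgggCTTGtcg
DDB2, bases 43571 to 43590 of an unplaced scaffold, exon, 12 bases downstream, 1 mismatch: gagCTGGtttgaaCAAGccc
MDM2, chr11:68343120-68343139, exon, 724 bases downstream, 2 mismatches: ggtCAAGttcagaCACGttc
The CDKN1A and GADD45A stretches hold the same core in both half-sites, and the other 3 hold 2 different cores. A match is a description of these letters and not a binding site, and binding was not measured here. The genes without a match in this window were BBC3 (chr19:47241977-47252440), FDXR (chr16:71200659-71211131), XPC (chr2:145495554-145529108), PHLDA3 (chr1:58878761-58891269) and AEN (chr7:67354983-67381989). No exon of the 10 genes overlapped an exon of another annotated gene.

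Before irradiation the 10 genes spanned a wide range of levels, here given per kilobase of exon in CPM (read counts relative to a library size scaled by the upper quartile), mean ± SD over the 24 controls. MDM2 stood highest at 87.6 ± 41.5, followed by XPC, which recognises distorted DNA in nucleotide excision repair, at 53.5 ± 18.4. GADD45A, a stress protein that slows the cycle at the G2 to M step, stood at 22.7 ± 15.4, BAX, which opens the mitochondrial outer membrane in apoptosis, at 21.0 ± 3.14, and CDKN1A, the p21 inhibitor of cyclin-dependent kinases, at 10.6 ± 2.80. The lowest were FDXR, the mitochondrial ferredoxin reductase, at 3.27 ± 0.88, PHLDA3, an inhibitor of Akt signalling, at 2.83 ± 0.96, and DDB2, the sensor of damaged DNA that precedes XPC, at 2.42 ± 0.55. MDM2 exceeded XPC, XPC exceeded GADD45A, BAX exceeded BBC3 and CDKN1A exceeded FDXR in 24 of 24 controls. Neighbours that did not separate were GADD45A and BAX (GADD45A higher in 9 of 24), BBC3 and AEN (BBC3 higher in 11 of 24), AEN and CDKN1A (AEN higher in 14 of 24), FDXR and PHLDA3 (FDXR higher in 19 of 24) and PHLDA3 and DDB2 (PHLDA3 higher in 16 of 24). Relative to their means, GADD45A and MDM2 varied most between animals.

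Total counts ranged from 2840219 to 23638161 per library, with a median of 8227563. The library names fall into 3 number series, called A (120 libraries, median 12313370 counts), B (34, median 7104570) and C (150, median 6904804) here. What the series stand for is not given in the labels. On Days 3, 6, 9 and 15 every control and post-irradiation library of an animal came from the same series (20 animals in A, 4 in C). This held for 16 animals on Day 21, 4 on Days 30 and 40, 2 on Day 60, 1 on Day 90 and 0 later, so from Day 120 on day and series cannot be told apart within an animal.

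Day 3, with 24 animals, was the day on which most of the 10 genes were higher than in the controls. Each animal was compared with itself by edgeR's quasi-likelihood test, and a gene was called where the Benjamini-Hochberg adjusted p did not exceed 0.05 and the level changed at least 1.5-fold. Of the 10 genes 6 were called higher (CDKN1A, PHLDA3, DDB2, BBC3, BAX and GADD45A) and 0 lower, where 6.89% of all genes tested were called higher and 4.62% lower. The median log2 change of the 10 genes was 0.65, beside -0.06 over all genes. All 6 called genes rose in 20 of 24 animals, and at least 5 of them rose in 24 of 24.

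The largest change was in the cell-cycle inhibitor CDKN1A. Its controls had 33.5, 46.6 and 84.7 CPM (lowest, median, highest) and its Day 3 samples 70.0, 150.7 and 257.1 CPM. All 24 animals rose, 23 of the 24 Day 3 samples lay above the highest control, and the 2 groups overlapped only through 1 animal at the low end. The log2 change was 1.59 (SE 0.08, n = 24, adjusted p = 1.1e-15 by edgeR), a fold of 3.00, which placed CDKN1A 39th of the 13751 genes by size of increase. Single animals ranged from 0.83 to 2.46. GADD45A, the other gene of cell-cycle arrest, went from 7.29, 23.2 and 104.1 CPM to 14.01, 35.1 and 116.2 CPM. Its groups overlapped almost fully, because animals differed before irradiation, and the rise showed within animals, in 20 of 24 (log2 change 0.64, SE 0.11, adjusted p = 2.79e-05).

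**Figure D1:**
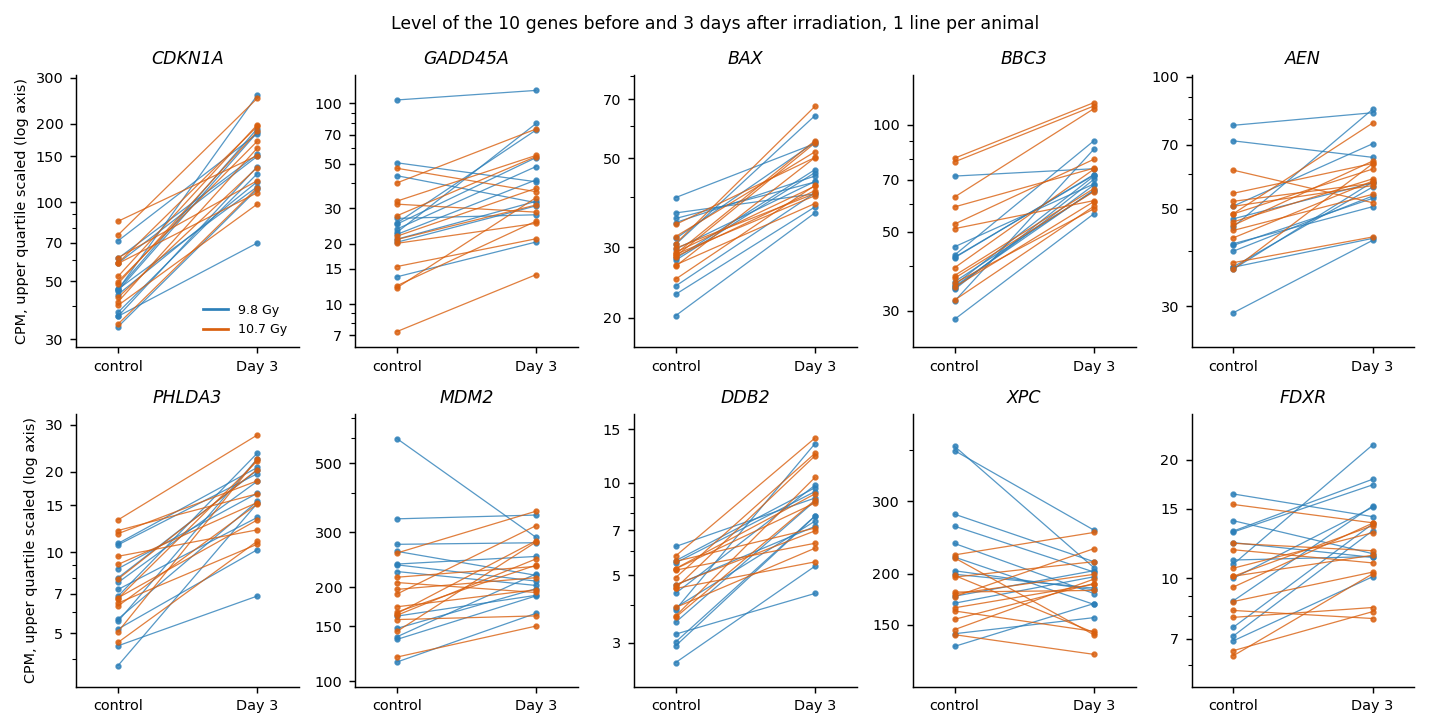
Level of each of the 10 genes in the 24 animals on Day -2 (control) and Day 3, in CPM on a log axis, with 1 line per animal. The CDKN1A lines all climb, from a median of 46.6 to 150.7 CPM, while the XPC lines cross, with 12 of 24 climbing.

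The 4 genes tied to cell death moved by different amounts. PHLDA3, which restrains the survival kinase Akt, went from 3.78, 7.07 and 13.2 CPM to 6.87, 16.6 and 27.5 CPM. It rose in 24 of 24 animals and 18 Day 3 samples lay above every control (log2 change 1.15, SE 0.10, adjusted p = 5.97e-11). BBC3, which encodes the BH3-only protein PUMA, went from 28.4, 38.6 and 80.6 CPM to 56.2, 71.0 and 115.5 CPM. All 24 animals rose, but 5 samples only were above the highest control (log2 change 0.77, SE 0.06, adjusted p = 7.72e-12). BAX went from 20.3, 29.0 and 39.9 CPM to 36.5, 44.4 and 67.3 CPM. It changed less, yet 21 of 24 samples exceeded every control, since its controls were close together (log2 change 0.66, SE 0.05, adjusted p = 1.19e-11). AEN, a nuclease that p53 induces in dying cells, went from 29.0, 45.7 and 77.5 CPM to 42.4, 57.4 and 84.4 CPM. It was higher in 22 of 24 animals and stayed under the 1.5-fold limit (log2 change 0.35, SE 0.06, adjusted p = 4.16e-06).

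The 2 repair genes separated. DDB2 went from 2.59, 4.53 and 6.20 CPM to 4.35, 8.67 and 14.02 CPM. All 24 animals rose and 20 samples lay above the highest control (log2 change 0.95, SE 0.09, adjusted p = 8.0e-10). XPC, which acts after DDB2 in the same repair pathway, had 132.8, 188.2 and 409.3 CPM in controls and 127.0, 188.7 and 255.5 CPM on Day 3. It was higher in 12 of 24 animals, and its log2 change of -0.09 had a 95% confidence interval from -0.24 to 0.06 (adjusted p = 0.298).

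The other 2 genes passed the adjusted p but not the fold. FDXR went from 6.34, 10.1 and 16.4 CPM to 7.89, 12.4 and 21.8 CPM. It rose in 17 of 24 animals (log2 change 0.31, SE 0.08, adjusted p = 0.00152). MDM2, the brake on p53, had 115.3, 181.8 and 599.4 CPM in controls and 150.4, 219.8 and 350.9 CPM on Day 3. It was higher in 19 of 24 animals, 0 samples exceeded the highest control, and the log2 change was 0.23 (SE 0.08, adjusted p = 0.0183). In the 20 animals of series A alone the adjusted p of MDM2 was 0.0676, while the same 6 genes were called.

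Cell-type markers moved on the same day. All 8 B-cell markers were called lower (median log2 change -1.32), and their summed level went from 332, 1313 and 2191 CPM in controls to 189, 477 and 1089 CPM. Of the markers of other cells, 8 of 8 erythroid, 6 of 6 platelet, 6 of 7 monocyte and 3 of 3 C1q genes (complement, made by macrophages) were called higher, with medians of 0.99, 1.35, 1.01 and 3.15. T-cell markers had 0 of 8 called (median 0.13). The summed C1q level went from 3.18, 9.91 and 58.9 CPM to 37.7, 82.9 and 460.0 CPM, and no marker of these lists was at 0 in all samples. In whole blood, fewer cells of a type and less RNA per cell cannot be told apart, and the part of cell composition in the changes of the 10 genes was not tested.

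**Figure D2:**
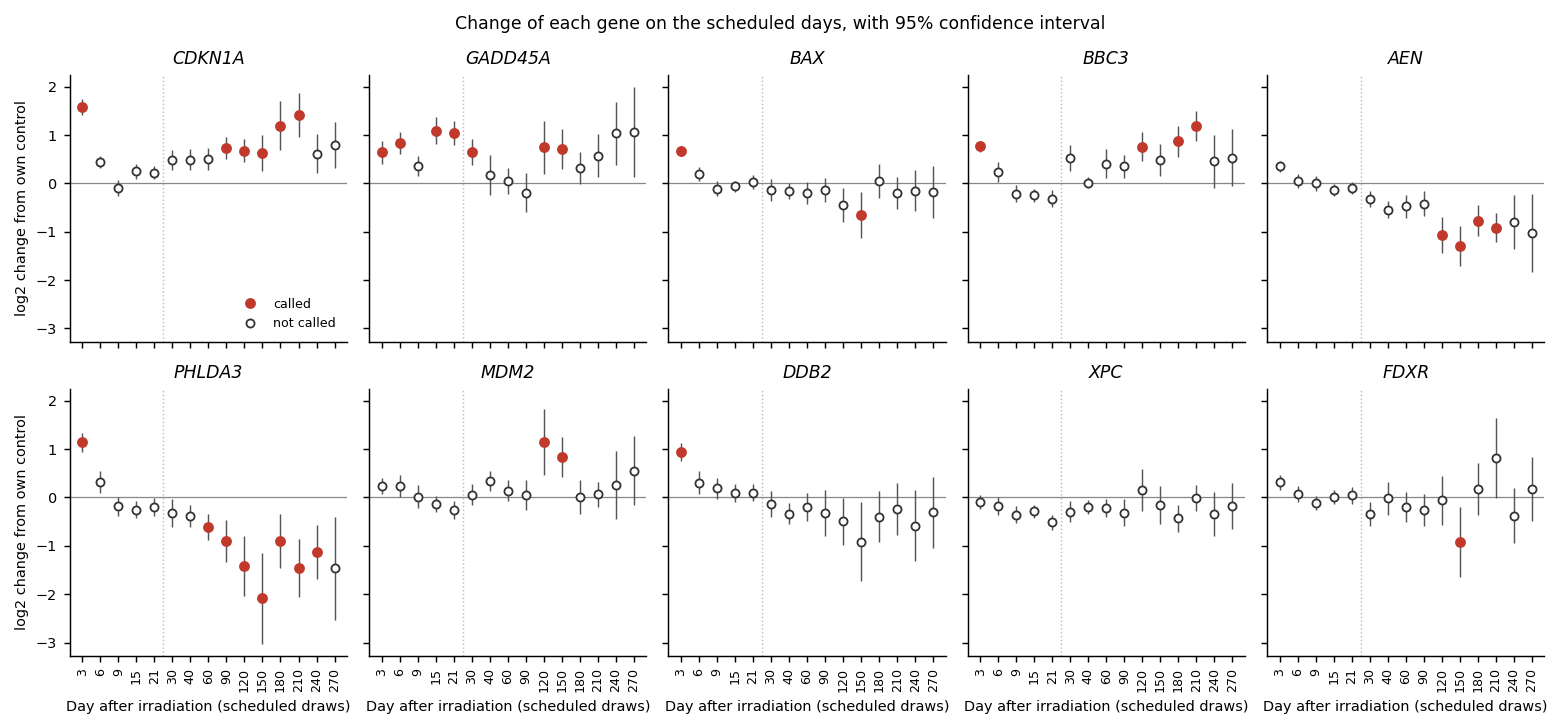
Log2 change against the animal's own control for each of the 10 genes on the 15 scheduled days, with 95% confidence intervals. Red filled points passed both limits and open points did not, and the dotted line marks the days from which no library was of series A. CDKN1A stands at 1.59 on Day 3 and -0.09 on Day 9, and PHLDA3 goes from 1.15 on Day 3 to -2.08 on Day 150.

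The Day 3 rise was short-lived in most of the 10 genes. On Day 6, 1 of 10 was called higher (GADD45A), beside 6.04% of all genes. CDKN1A (0.44), PHLDA3 (0.32), DDB2 (0.30) and BAX (0.19) passed the adjusted p on Day 6 without reaching the fold. They were higher in 22, 18, 19 and 20 of 24 animals. On Day 9, 0 of 10 was called in either direction by edgeR, beside 7.58%. DESeq2 called 0 of 10 on Day 9 too. At an unadjusted p under 0.05 Day 9 had 7770 genes and 3 of the 10, which also passed the adjusted p without reaching the fold, namely GADD45A at 0.37 (adjusted p = 0.00401), XPC at -0.36 (adjusted p = 0.00122) and BBC3 at -0.22 (adjusted p = 0.0358). CDKN1A had 36.4, 66.1 and 134.5 CPM on Day 6 and 25.5, 44.6 and 86.98 CPM on Day 9. Its Day 9 range was close to that of the controls, and the log2 change went from 0.44 (SE 0.06) to -0.09 (95% confidence interval -0.26 to 0.08).

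The decline was tested within animals against Day 3. On Day 6, 3 of the 10 genes were called lower than on Day 3, where 1.55% of all genes were: CDKN1A by -1.15 (lower in 24 of 24 animals), PHLDA3 by -0.80 (23 of 24) and DDB2 by -0.63 (22 of 24), all on the log2 scale. On Day 15, 5 of 10 were called lower than on Day 3, beside 3.90% of all genes, each in 24 of 24 animals: PHLDA3 by -1.40, CDKN1A by -1.34, BBC3 by -1.01, DDB2 by -0.85 and BAX by -0.73. On Day 30, 6 of 10 were called lower than on Day 3, beside 5.11%, with AEN (-0.67) and FDXR (-0.64) added and BBC3 left out. The same Day 3 samples enter these comparisons and that with the controls. Between Day 3 and Day 15 the 3 C1q genes fell by 2.81 (median, log2) and 6 of 6 platelet markers were also called lower, while 8 of 8 erythroid markers were called higher.

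GADD45A followed another course. It had 20.2, 41.9 and 167.2 CPM on Day 6 and 18.5, 56.8 and 148.6 CPM on Day 15, against 7.29, 23.2 and 104.1 CPM in the controls. The groups overlapped, and the gene was higher within 22 and 23 of 24 animals. It was the 1 gene of the 10 called higher on Day 6 (log2 change 0.84, SE 0.11, adjusted p = 1.07e-06), on Day 15 (1.09, SE 0.14, adjusted p = 2.17e-07, beside 5.11% of all genes), on Day 21 (1.05, SE 0.12, adjusted p = 4.6e-08, beside 7.65%) and on Day 30 (0.65, SE 0.13, adjusted p = 0.000562, beside 4.57%). On Day 15 it stood 0.46 above its own Day 3 level on the log2 scale, higher in 19 of 24 animals and under the fold limit. In the animals whose 2 libraries shared a series it was called on Day 21 (1.05, n = 16) and on Day 30 (1.07, n = 4, all HD, adjusted p = 0.0122). Erythroid markers were high over the same days, with 8 of 8 called on Days 6, 9, 15 and 21, and a median of 2.43 on Day 15, when their summed level was 9308, 24362 and 81808 CPM against 1570, 6193 and 11238 CPM in the controls. On Day 30 the list had 6 of 8 higher and 2 lower (median 1.61). On Day 9 the erythroid median was 1.28 while GADD45A was at 0.37, and whether the GADD45A level came with those cells was not tested.

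XPC went the other way over these weeks. It had 106.5, 134.8 and 193.99 CPM on Day 21, with 9 of 24 samples below the lowest control. The level was lower in 23 of 24 animals, and the log2 change of -0.51 (SE 0.07, adjusted p = 1.81e-06) did not reach 1.5-fold. It was -0.51 in the 16 animals of 1 series. On the same day BBC3 (-0.32) and MDM2 (-0.26) were also lower by adjusted p alone, and CDKN1A (0.22) higher.

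On Day 40, 0 of 10 genes passed both limits, beside 6.92% of all genes in either direction, whereas 6 had an adjusted p under 0.05: CDKN1A (0.49) and MDM2 (0.34) higher, AEN (-0.54), PHLDA3 (-0.38), DDB2 (-0.33) and XPC (-0.19) lower. AEN was lower in 24 of 24 animals, with 9.53, 33.6 and 49.6 CPM against 29.0, 45.7 and 77.5 CPM. DESeq2 also called 0 of 10. A single library, that of animal B2007 (HD), stood apart. Day 40 was the last draw of this animal, as it was for 3 HD animals in all. Against the animal's own control GADD45A was 4.55 higher (175.7 CPM), FDXR 3.38 higher (92.6 CPM), CDKN1A 2.45 higher on the log2 scale, while AEN fell by 2.38. Without this library the changes were 0.41 for CDKN1A, 0.05 for GADD45A, -0.14 for FDXR and -0.48 for AEN. With it GADD45A had been 0.18 and FDXR -0.02.

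By Days 60 and 90 CDKN1A and PHLDA3 had parted. On Day 60 (n = 21) 1 of 10 genes was called lower and 0 higher, beside 1.92% and 2.31% of all genes. PHLDA3 had 1.34, 4.58 and 9.46 CPM, against 3.78, 7.72 and 13.2 CPM in the same animals before (log2 change -0.61, SE 0.13, lower in 18 of 21, adjusted p = 0.00305). With the library series as a term the value was -0.29 and was not called. CDKN1A was at 0.51 on Day 60 and was not called. On Day 90 (n = 15) CDKN1A was called higher, beside 3.87% of all genes, and PHLDA3 lower, beside 3.19%. CDKN1A had 34.99, 78.6 and 167.3 CPM (0.74, SE 0.11, higher in 13 of 15, adjusted p = 0.000279) and PHLDA3 0.153, 4.46 and 8.32 CPM (-0.90, SE 0.21, lower in 14 of 15, adjusted p = 0.00616). With the series as a term both were called, at 0.74 and -0.70. BBC3 reached 0.53 on Day 30, 0.41 on Day 60 and 0.35 on Day 90, passing the adjusted p and not the fold. In the 4 animals of 1 series on Day 30, all HD, BBC3 was -0.32 and CDKN1A 0.03, where CDKN1A was 0.48 over all 24. That contrast mixes series with dose. Over the 24 animals the mean Day 30 changes were 0.73 in LD and 0.31 in HD for BBC3, and 0.66 and 0.29 for CDKN1A (n = 12 each).

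From Day 120 some of the 10 genes were higher and others lower than before irradiation, on days when many genes were called and several of the counts were near the share over all genes. On Day 120 (n = 12, 11 LD) 4 of 10 were called higher, beside 12.7% of all genes, and 2 lower, beside 19.1%. MDM2 was the highest of them, with 198.3, 336.4 and 898.9 CPM against 115.3, 195.8 and 331.6 CPM (log2 change 1.15, SE 0.32, higher in 10 of 12, adjusted p = 0.00847). BBC3 (0.75, adjusted p = 0.000644), GADD45A (0.75, adjusted p = 0.0286) and CDKN1A (0.68, adjusted p = 0.000304) were higher in 11, 10 and 11 of 12 animals. BBC3 was 0.48 with the series as a term and was not called. AEN had 12.2, 22.03 and 34.8 CPM against 36.4, 43.1 and 77.5 CPM. These groups did not overlap (-1.07, SE 0.18, adjusted p = 0.000263). The share of all genes without such an overlap was not computed, on this day or later ones, so a lack of overlap is not particular to the genes named. PHLDA3 had 0.454, 3.12 and 5.06 CPM against 3.78, 7.50 and 10.8 CPM, lower in 12 of 12 animals (-1.42, SE 0.29, adjusted p = 0.00118).

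On Day 150 (n = 9, 8 LD) 3 of 10 were called higher, beside 12% of all genes, and 4 lower, beside 19.5%. MDM2 (0.84, higher in 9 of 9), GADD45A (0.71) and CDKN1A (0.63) were higher. PHLDA3 had 0, 1.91 and 4.67 CPM against 5.17, 7.72 and 10.7 CPM, and AEN 8.71, 19.8 and 25.4 CPM against 36.4, 41.6 and 71.5 CPM. Both genes were free of overlap with the controls (AEN -1.30, adjusted p = 0.000183, and PHLDA3 adjusted p = 0.00199 with a fitted change of -2.08, which depends on the prior count because 2 libraries had no PHLDA3 read). FDXR (-0.92, adjusted p = 0.0425) and BAX (-0.65, adjusted p = 0.0306) were lower in 8 and 7 of 9 animals and lost the call under other settings, at -0.83 and -0.56 with TMM scaling and at -0.29 (adjusted p = 0.386) and -0.27 (adjusted p = 0.185) with the series as a term. CDKN1A was 0.57 with the series as a term, under the fold limit. The shallowest library, of animal B1502, had 0 reads of FDXR, DDB2 and PHLDA3, where 3 reads would be 1.21 CPM. Without it FDXR was -0.72 and BAX -0.78, both still called, and PHLDA3 -1.91.

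On Days 180 to 270 the same 6 animals (5 LD, 1 HD) were followed. On Day 180, 2 of 10 were called higher, beside 8.81%, and 2 lower, beside 9.86%, and on Day 210 also 2 and 2, beside 12.8% and 16.9%. CDKN1A had 41.5, 126.8 and 230.3 CPM on Day 180 and 81.96, 127.3 and 281.3 CPM on Day 210, against 36.7, 52.2 and 71.3 CPM in these animals before. The Day 210 samples did not overlap the controls, and the log2 changes were 1.19 (SE 0.24, adjusted p = 0.00336) and 1.42 (SE 0.21, adjusted p = 0.000504), higher in 6 of 6. BBC3 was the other higher gene, at 0.87 and 1.18, 6 of 6 each. AEN, at -0.77 and -0.92, lay below every control on both days, and PHLDA3 was at -0.89 and -1.46, lower in 6 of 6. With the series as a term on Day 180 BBC3 was 0.47 and PHLDA3 -0.46, and neither was called. FDXR ran from 4.11 to 60.7 CPM on Day 210, with a median of 13.2 (0.82, adjusted p = 0.101). With the series as a term FDXR (1.61) and GADD45A (0.91) were called higher on Day 210, and GADD45A also by DESeq2 (0.70). Without that term GADD45A was 0.57 by edgeR, under the fold limit.

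On Day 240, 0 of 10 was called higher and 1 lower, beside 3.26% and 3.51% of all genes: PHLDA3 with 2.83, 3.26 and 4.54 CPM against 5.17, 7.88 and 9.67 CPM, without overlap (-1.13, SE 0.25, adjusted p = 0.0269). DESeq2 called 2 higher and 2 lower on that day, beside 1275 and 914 of all genes. By edgeR 4 of the 10 had an unadjusted p under 0.05, beside 3837 of all genes. On Day 270, 0 of 10 was called, beside 0.00727% of all genes (1 gene). At an unadjusted p under 0.05 there were 4060 genes and 4 of the 10. DESeq2 called 2 of the 10 higher and 2 lower, beside 1366 and 978 of all genes. CDKN1A was at 0.80 (6 of 6 higher), GADD45A at 1.06 (5 of 6), PHLDA3 at -1.46 (0 of 6 higher) and AEN at -1.03 (1 of 6 higher). BBC3, called on Days 180 and 210, was at 0.45 on Day 240 (5 of 6 higher) and 0.53 on Day 270 (4 of 6). With the series as a term CDKN1A (0.85), GADD45A (1.70) and MDM2 (0.83) were called higher and PHLDA3 (-0.91) and AEN (-0.82) lower on Day 270.

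Markers of several blood cell types shifted over the same months. B-cell markers were called lower in 8 of 8 on Days 120, 150, 180, 210 and 240, with medians of -1.78, -2.45, -2.32, -2.33 and -2.54, and their summed level was 63.1, 322 and 632 CPM on Day 120. T-cell markers were lower in 6 of 8 on Days 120 and 150 (medians -0.86 and -0.96), in 2 of 8 on Day 180 and in 3 of 8 on Day 210. Neutrophil markers were higher in 6 of 7 on Day 120 (median 1.28) and 4 of 7 on Day 150 (0.83), then in 2 of 7 on Day 180 and 3 of 7 on Day 210. Monocyte markers were higher in 4, 4, 4 and 5 of 7 on Days 120, 150, 180 and 210 (1 lower on Day 120), platelet markers in 5 of 6 on Days 120 and 210 and 3 of 6 on Day 180, and erythroid markers in 5 of 8 on Day 210 (2 lower) and 6 of 8 on Day 240. The part of these shifts in the late changes of the 10 genes was not tested. The median change of all genes was -0.15, -0.17 and -0.13 on Days 120, 150 and 210, against -0.05, -0.09 and -0.05 with TMM scaling and -0.01, -0.10 and -0.01 with DESeq2, and no called change of the 10 genes turned its direction.

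**Figure D3:**
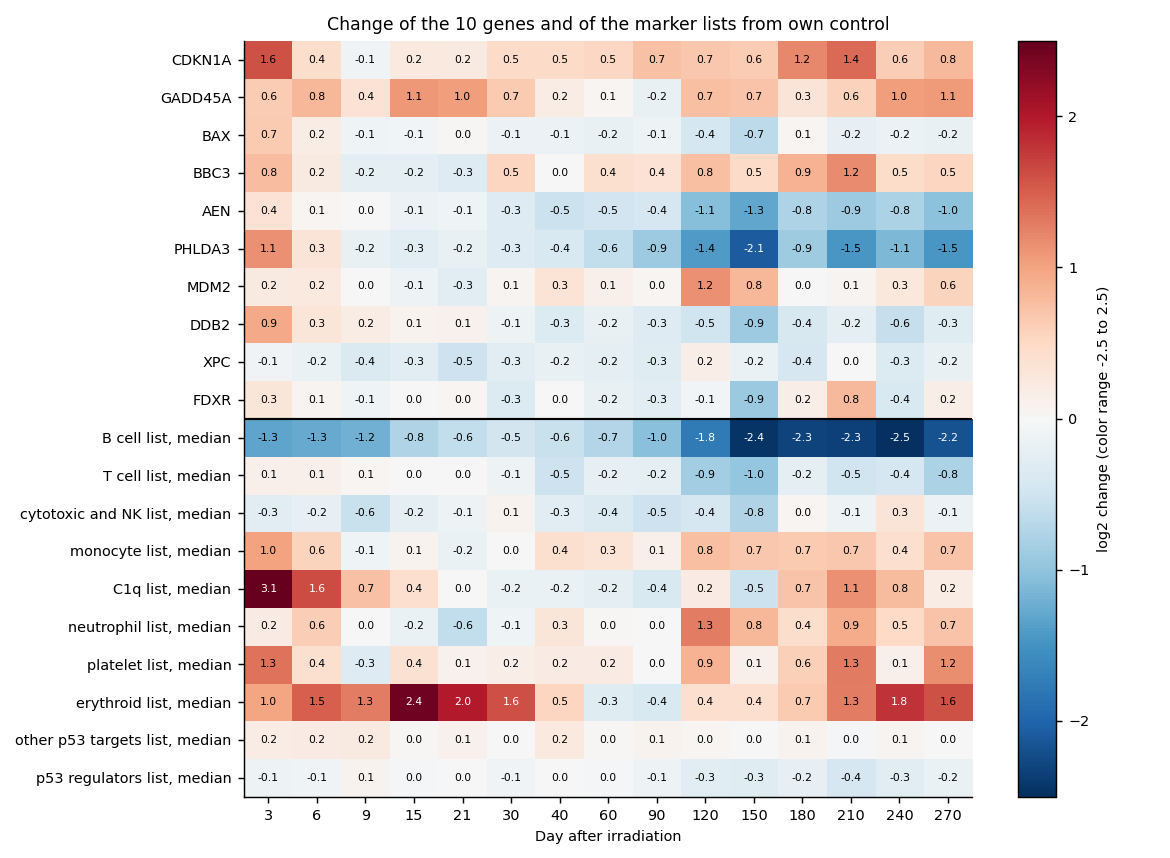
Heat map of the log2 change against control for the 10 genes and the median of each cell-marker list on the 15 scheduled days, with days as columns. On Day 3 the B-cell median is -1.32 beside CDKN1A at 1.59, and on Day 150 it is -2.45 beside PHLDA3 at -2.08.

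The dose comparison asked whether the change from control differed between HD and LD animals. On Days 3, 6, 9, 15, 21 and 30 0 of 10 genes differed, beside 0%, 0%, 0%, 0%, 0% and 0% of all genes, and on Day 40 0 of 10, beside 0.0364%. At an unadjusted p under 0.05 there were 689, 1010, 1357, 965, 993, 404 and 2527 genes on these 7 days, with 1, 1, 2, 0, 1, 0 and 1 of the 10 among them, and DESeq2 called 0 of the 10 on each. CDKN1A on Day 3 rose by 1.63 ± 0.43 in LD and by 1.53 ± 0.42 in HD (mean ± SD of the log2 change, n = 12 each), a difference of -0.10 with a 95% confidence interval from -0.43 to 0.23. Over the 10 genes the Day 3 differences ran from -0.23 to 0.32, with intervals reaching from -0.62 to 0.64. The lowest Day 3 p was that of MDM2 (difference 0.32, unadjusted p = 0.0463, edgeR adjusted p = 0.917).

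On Day 60 the 2 doses differed (12 LD, 9 HD), with 3 of 10 genes called higher in HD, beside 10.5% of all genes, and 0 lower. Over all genes 1440 were higher and 1731 lower in HD. Of 29 further p53 targets, described below, 6 were higher and 4 lower in HD (median difference -0.14). The median difference over all genes was -0.12, and -0.01 with DESeq2, which called 4 of the 10 and 1910 of all genes higher. CDKN1A changed by 0.22 ± 0.36 in LD and 0.88 ± 0.48 in HD, a difference of 0.66 (95% confidence interval 0.28 to 1.03, adjusted p = 0.00859). MDM2 changed by -0.15 ± 0.23 and 0.52 ± 0.48, a difference of 0.66 (0.32 to 1.00, adjusted p = 0.00428), and GADD45A by -0.24 ± 0.44 and 0.46 ± 0.64, a difference of 0.69 (0.23 to 1.16, adjusted p = 0.0235). XPC differed by 0.53 (adjusted p = 0.0123), under the fold limit. All 4 were higher in HD, and the other genes had adjusted p-values above 0.05, with DDB2 at -0.57 (unadjusted p = 0.0407). Without the animal as a block, 0 of the 10 were called (CDKN1A 0.63, adjusted p = 0.0859).

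Other features went with dose on Day 60. For 4 of the 9 HD animals this was the last draw, and without them CDKN1A was 0.74 (adjusted p = 0.0116), MDM2 0.58 (adjusted p = 0.0386, under the fold) and GADD45A 0.62 (adjusted p = 0.0727). Without the library of animal B2505 (HD), which stood apart, GADD45A was 0.56 (adjusted p = 0.0625), while CDKN1A (0.60) and MDM2 (0.62) were called. The library series differed too, since 4 LD animals went from A to B, 8 LD and 7 HD from A to C, and 2 HD stayed in C. In the 15 animals that went from A to C, 4 of 10 genes were called higher in HD: CDKN1A 0.90 (adjusted p = 0.00157), MDM2 0.76 (adjusted p = 0.00817), GADD45A 0.71 (adjusted p = 0.0475) and XPC 0.69 (adjusted p = 0.00867). Over all genes 1783 were higher and 2323 lower in HD in these animals. Of the markers, 6 of 7 neutrophil (median difference 1.65) and 4 of 7 monocyte genes (1.35) were called higher in HD and 6 of 8 B-cell genes lower (-1.11). The summed neutrophil level was 587, 1814 and 5117 CPM in LD and 2816, 5973 and 14165 CPM in HD, and its part in the difference was not tested.

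**Figure D4:**
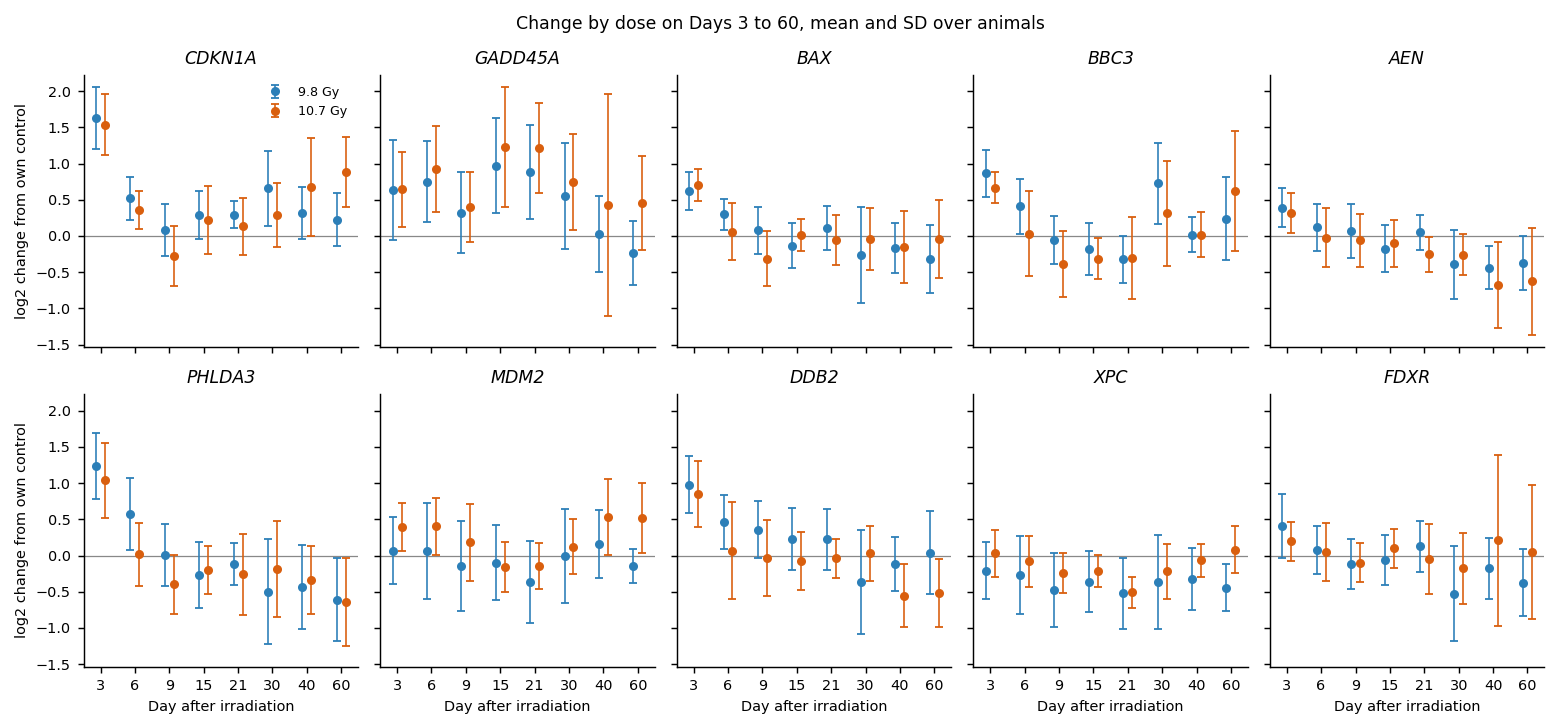
Mean log2 change against control with SD for the 10 genes on Days 3 to 60, LD (9.8 Gy) in blue and HD (10.7 Gy) in orange. The doses lie close together for CDKN1A on Day 3 (1.63 and 1.53) and apart on Day 60 (0.22 and 0.88).

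Sex, length of follow-up and the starting level showed no called difference. Between 12 females and 12 males the Day 3 change of the 10 genes differed by -0.20 to 0.29 (male minus female), with intervals from -0.67 to 0.67, and 0 of 10 was called, beside 0% of all genes. Among LD animals, the 5 that were still drawn on Day 270 and the 7 that were not differed by -0.28 to 0.28, with intervals from -0.79 to 1.01, and 0 of 10 was called, beside 0%. On Day -2, before exposure, HD minus LD was -0.46 to 0.32, with intervals from -1.08 to 0.66, and 0 of 10 was called, beside 0%. At an unadjusted p under 0.05 these 3 comparisons had 346, 93 and 1160 genes and 0, 0 and 1 of the 10, the 1 being XPC before exposure (-0.40, p = 0.0164). DESeq2 called 0 of the 10 in each. In each comparison the widest intervals reach past 1.5-fold.

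Other genes of the pathway show how far the 10 stand for it. Of 30 further p53 targets 29 were tested, and on Day 3, 5 were called higher and 0 lower, with a median log2 change of 0.18. EDA2R, a receptor of the TNF family, rose by 2.72 (SE 0.18, 24 of 24 animals), more than any of the 10, and was 4th of all genes. TNFRSF10B, a death receptor, rose by 1.02, GDF15, a secreted stress cytokine, by 0.77, RPS27L, a ribosomal protein paralog, by 0.65 and PCNA, the sliding clamp of DNA replication and repair, by 0.61. EDA2R outlasted the Day 3 rise of CDKN1A, at 1.95, 1.65, 0.88 and 0.70 on Days 6, 9, 15 and 21, called on each and on no later day. RPS27L was called higher on Days 6, 9 and 21 (0.69, 0.83 and 0.84). GDF15 was called higher on Days 40, 60, 90, 120, 180 and 210, between 0.61 and 1.21. PMAIP1, which encodes the BH3-only protein NOXA, was called higher from Day 6 to Day 40, at 0.59, 0.72, 0.60, 0.76, 0.72 and 0.74.

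Of 10 p53 regulators described here, 0 was called by edgeR from Day 3 to Day 90. On Day 3 MDM4, ATM and TP53BP1 were at -0.41, -0.36 and -0.44, past the adjusted p and not the fold. MDM4, the partner of MDM2, was lower in 24 of 24 animals. On Day 120 ATM (-0.81) and TP53BP1 (-0.77) were called lower and the ubiquitin ligase COP1 higher (0.80). Among the 29 further targets 6 were then higher and 2 lower, beside 12.7% and 19.1% of all genes, with TP53INP1 (1.62), TP53I11 (1.45) and the autophagy gene DRAM1 (1.18) the highest and POLH (-0.78) and PIDD1 (-0.77) lower. TP53INP1, TP53I11 and DRAM1 were called higher on Days 150, 180 and 210 as well. Of the 29 further targets 6 were higher and 2 lower on Day 150, and 5 and 2 on Day 180. The shares over all genes on these days are given above. On Day 210, 6 of the 29 were higher and 6 lower, beside 12.8% and 16.9% of all genes. The lower ones were PLK2 (-1.05), RPS27L (-0.89), SESN1 (-0.83), POLH (-0.72), CCNG1 (-0.69) and TRIAP1 (-0.64).

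**Figure D5:**
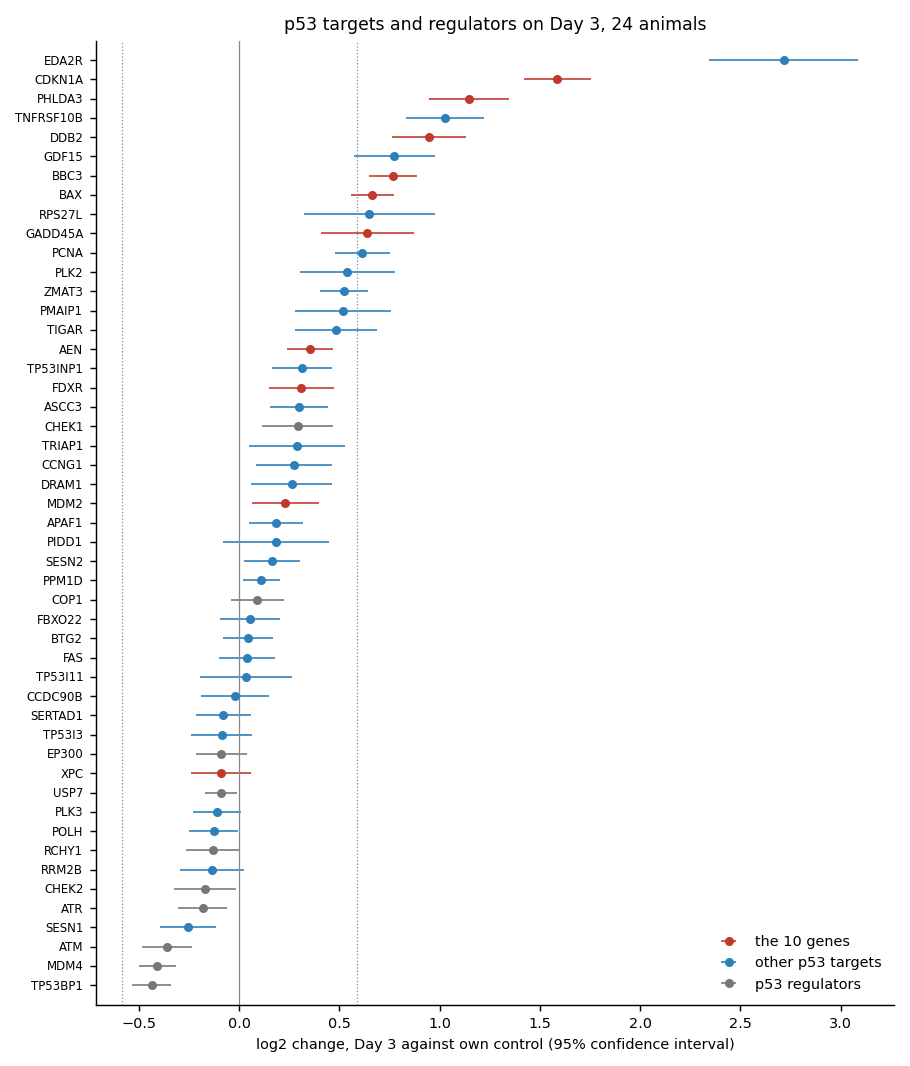
Log2 change on Day 3 with 95% confidence intervals for the 10 genes, 29 further p53 targets and 10 regulators, with dotted lines at 1.5-fold. EDA2R at 2.72 and CDKN1A at 1.59 stand at the top, and the regulators lie between -0.44 and 0.29.

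The average course of the 10 genes over the 15 days (0.66 on Day 3, 0.25 on Day 6 and -0.05 on Day 9) was set beside that of every gene tested. The most alike were MRPL28 (Pearson r = 0.94 over 15 days), C1QC (0.93), C1QB (0.92), GCNT3 (0.91) and C1QA (0.90). The 15 values share the control samples and the late ones the same few animals, so the r is a description. C1QC, C1QB and C1QA stood at 3.26, 3.06 and 3.15 on Day 3, and all 3 were still called higher on Day 9, when 0 of the 10 genes was.

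Whether animals with a large CDKN1A rise on Day 3 also had a large rise in the other 9 genes was examined over 24 animals, as relations chosen after the data were seen. DDB2 had the highest values, Pearson r = 0.53 (permutation p = 0.0085, adjusted 0.0765 over 9 relations) and Spearman rho = 0.48 (permutation p = 0.0182, adjusted 0.164). Without the 2 animals farthest from the median CDKN1A change r was 0.44, and in the 20 animals of series A it was 0.52. GADD45A had r = 0.43 (permutation p = 0.0365, adjusted 0.164) and rho = 0.38 (permutation p = 0.068, adjusted 0.306), with r = 0.24 without the 2 farthest animals and 0.43 in series A. The other 7 had r between -0.14 and 0.26, with adjusted permutation p-values of at least 0.632. None of the 9 passed the adjustment.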

How the data were processed

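RNA from whole blood of 28 rhesus macaques was measured by sequencing, in 24 control and 280 post-irradiation samples. Per the labels and the study's methods the authors trimmed reads with cutadapt 2.10, aligned them to Mmul_10 with STAR 2.7.6a and counted them per gene with Subread 2.0.1, and they deposited raw counts of 21070 genes. The strand setting of the counting was not given in the sources used here. A second table deposited by the authors holds log2 values of 16730 genes scaled by the upper quartile and served as an alternative only.

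Counts were tested with edgeR 4.0.16 (R 4.3.3): upper-quartile scaling, a filter of at least 3 counts in 80% of samples (13751 genes left), a block for the animal, and p-values adjusted by Benjamini-Hochberg over every gene tested. Calls needed an adjusted p not above 0.05 together with a 1.5-fold change. Dose, sex and follow-up differences were interactions with day. Pairing comes from the labels, which tie samples to animals: deviations of a Day 3 sample correlated with those of its own control (median 0.548) and not with those of other animals (median -0.0139). CPM used the scaled library sizes, and per-animal log2 changes a prior count of 2. P-values measure the spread between animals within this study. Tables and tests were tested on simulated counts. DESeq2 1.42.0, limma 3.58.1 on the log2 values, TMM scaling, no filter, no block, single library series, a series term and left-out animals were tried. Figures and permutation tests (100000 permutations) used Python 3.11.15, matplotlib 3.10.9, pandas 2.3.3 and scipy 1.17.1.

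The 10 genes and all lists were chosen with earlier results of these data known. All 10 are named with their values on Day 3 against control, and a figure shows all 10 on each scheduled day. On later days the text names only some of them. The further p53 genes called on Day 3 and the 5 genes of most similar course are named as well. Others were named after their values were seen. The 8 unscheduled draws entered no comparison. The regulator list held 1 further gene that is not reported here.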

Additional observations from a re-analysis of the deposited data

Results flagged for a closer look

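In 60 combinations of a gene and a group of 4 to 10 samples, 7 held a highest or lowest sample whose gap to the next exceeded Dixon's 95% critical value for its share of the group's range. By the construction of that limit chance gives about 1 in 20. BAX was 16.04 CPM in animal B2502 on Day 90 (HD, n = 5), with the next sample at 22.2. FDXR and DDB2 were both 0 in the library of B1502 on Day 150 (LD, n = 8), with the next samples at 4.40 and 1.45 CPM. This was also the library with the fewest counts, 2840219. XPC was 185 CPM in B1003 on Day 210 (LD, n = 5), with the next at 214.8. Animal B1503 gave the other 3: MDM2 at 633.5 CPM on Day 240 (next 203), DDB2 at 1.08 CPM on Day 240 (next 3.51) and PHLDA3 at 0.584 CPM on Day 270 (next 3.25), all in LD groups of 5.

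On Day 60 the log2 change from control differed between the doses by edgeR's test of the difference itself, with HD minus LD at 0.66 for CDKN1A, 0.69 for GADD45A and 0.66 for MDM2. For XPC it was 0.53, which passed the adjusted p and not the fold: XPC was lower than its control in LD (-0.45) and near it in HD (0.08).

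The 8 unscheduled draws, taken on Days 71 to 172, entered no comparison. Each was the last draw of its animal. The paper states that animals with severe acute radiation syndrome between scheduled draws were euthanized and sampled a last time. Of the 8 draws, 6 lay above the highest control for CDKN1A, 4 for BBC3, 2 for MDM2 and 2 for FDXR.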

How the results depend on the processing

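No change that passed both limits turned its direction under any alternative. BBC3 on Day 30, which passed the adjusted p alone at 0.53, was -0.32 in the 4 animals of 1 library series, all HD. Without the fold threshold the gene-by-day changes were 27 on Days 3 to 21 (9 with it) and 20 on Days 30 to 90 (4 with it). Without the animal as a block, or pairing, the Day 60 dose difference had 0 called genes (3 with it). The other counts over these spans and comparisons stayed within 1.5 times their value. On single late days the counts moved further. On Day 240 they went from 0 higher and 1 lower to 2 and 2, by DESeq2 and with the series as a term alike. On Day 270 they went from 0 and 0 to 2 and 2 by DESeq2, and to 3 and 2 with the series as a term. The counts over all genes rose as well. On Day 240 they went from 448 and 482 to 1275 and 914 by DESeq2, and to 1726 and 1717 with the series term. On Day 270 they went from 0 and 1 to 1366 and 978, and to 2077 and 2361. When 1 animal was left out at a time, genes called higher on Day 3 stayed at 6 in 24 of 24 runs, and none was called lower. On Day 180 the lower genes were 1 to 2 (PHLDA3 lost without B1503 or B2502, with the higher ones 2 to 2), on Day 210 the higher genes 2 to 4 (more without B1502 or B1505, with the lower ones 2 to 2), and on Day 240 the lower genes 0 to 1 (PHLDA3 lost without B1003, B1004, B1503 or B1505) and the higher ones 0 to 1 (1 without B1502). On Day 270 both were 0 to 1 (1 without B1003), and the follow-up difference stayed at 0 to 0. The cause of these changes was not tested.

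Of the single values, BAX, FDXR and CDKN1A on Day 150, PHLDA3 on Day 60, BBC3 on Days 120 and 180 and PHLDA3 on Day 180 lost their call under 1 or more settings. Other values gained a call, among them DDB2 on Day 150, FDXR and GADD45A on Day 210 and CDKN1A on Days 240 and 270. From Day 30 on nearly all libraries were of another series than the control, and from Day 180 only 6 animals remained. Genes with few reads, such as PHLDA3 and DDB2, are limited by depth in the late libraries.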

Other observations

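In the 8 unscheduled draws CDKN1A had 43.6, 107.5 and 169.1 CPM (lowest, median, highest), against 33.5, 46.6 and 84.7 CPM in the 24 controls. Of the 8 draws, 7 lay below the lowest control for AEN, 6 for PHLDA3, 4 for DDB2 and 2 for BAX. AEN and PHLDA3 were also called lower on several late scheduled days, and DDB2 on none in the main comparisons. On Day 150 DDB2 was at -0.91 without a call, while DESeq2 (-0.83) and the fit with the series as a term (-0.66) called DDB2 lower. Against the animal's own control, which 7 of the 8 had, PHLDA3, AEN and DDB2 were lower in 7 of 7 draws and BBC3 was higher in 7 of 7. These draws came from different days and both doses, so no mean or test is given. Each was its animal's last draw, so the values are not those of animals followed further.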
